A study of Homo sapiens with 12 samples.

Results

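The 49 genes described here drive cell division from mitotic entry to cytokinesis. They were chosen by name. The first were 6 mitotic cyclins, CDK1 and CDC25 phosphatases, 4 genes for mitotic kinases or the Aurora A activator TPX2, and 11 mitotic kinesins. Next came 9 spindle-associated proteins, 4 central spindle and cytokinesis genes, and 6 genes of anaphase and its ubiquitin ligase. The last were 7 genes of chromosome structure including MKI67, and the 2 transcription factors FOXM1 and MYBL2. Each of the 49 was found once among the 58302 genes of the expression tables, and all 49 passed the filter on low values in each comparison. After NUF2 knockdown their mRNA levels stayed near those of the control in both clear cell renal cell carcinoma (ccRCC) cell lines. With all libraries in the fit, no member was more than 1.5-fold higher or lower, while NUF2 itself fell to 20.1% of the control in 769-P cells and was at 27.9% of it in ACHN cells. Leaving out 1 library or pair took TACC3 past 1.5-fold in both lines, reaching 0.66 on the log2 scale for 769-P, and NEK2, MYBL2 and RACGAP1 past it in ACHN cells, to 0.71 at most. The lines themselves differed more widely, with log2 differences between ACHN and 769-P cells of -2.17 for MYBL2 and -1.63 for NCAPG under the control siRNA.

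Cells enter mitosis when cyclin B binds CDK1 and CDC25 phosphatases remove the inhibitory phosphates from CDK1, while PLK1 and Aurora A reinforce the switch. Kinesins and microtubule-associated proteins then build the bipolar spindle, condensins compact the chromosomes, and the anaphase-promoting complex ends mitosis by marking securin and the cyclins for degradation. NUF2 is a subunit of the NDC80 complex of the kinetochore, which holds spindle microtubules at the centromere. Many mRNAs of this program peak together in G2 and mitosis, under FOXM1, B-MYB (encoded by MYBL2) and the MuvB proteins. These mRNAs are low in resting cells. Their level in a bulk RNA sample therefore depends both on the share of cells in these phases and on the RNA per cell. The share and the RNA per cell cannot be told apart here. The phase in which each member peaks was not tested. A change in a single member, such as MYBL2 or FBXO5, is therefore not by itself a sign of G2 or mitosis.

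RNA sequencing was performed on 12 libraries in 4 groups of 3. Cells of the 769-P and ACHN lines received either siRNA against NUF2 (siNUF2) or a control siRNA (siControl), and RNA was taken after 48 h. Both are established human lines labelled as ccRCC cells, and per the study's methods siNUF2 stands for siRNAs against NUF2 that leave the gene itself intact, while 769-P cells were grown in RPMI-1640 and ACHN cells in Eagle's MEM medium. The labels number the replicates 1, 2 and 3 in every group without saying whether these were separate cultures, so p-values measure the spread between these libraries, which may be technical. The renal epithelial genes PAX8 (group means of 48.3 to 133.6 FPKM), KRT8 and KRT18 were present in both lines. The means of CA9, a gene that VHL loss induces in most ccRCC, stayed at or under 0.0626 FPKM in every group, and those of KRT19 differed between the lines, at 0.183 and 0.242 FPKM in 769-P cells against 278 and 283 FPKM in ACHN cells. CD3E and HBB, markers of T cells and red cells, were listed at 0 in all 12 libraries. Other markers of non-renal cells were not: the collagen gene COL1A1 had means of 2.08 and 2.26 FPKM in ACHN cells. The means of PTPRC, CD14, PECAM1, VWF and ALB stayed at or under 0.319 FPKM in every group.

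Values are FPKM, fragments per kilobase of exon scaled to the fragments of the library, as deposited. They corresponded to whole reads for 98.5% of the 36305 genes above 0, with between 29118786 and 38679297 reads per library. The 49 members had a median of 2941 reads per library, and the lowest count was 122 reads for CDC25C in an ACHN library. Genes that overlap on opposite strands may share reads, because whether reads were counted by strand is not given in the sources used here.

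The promoters of these genes show what the members share in sequence. Windows from 250 bases before to 50 bases after the transcription start were taken from RefSeq (GRCh38.p14) and matched 44 of the 49 members, with no entry for AURKA, TPX2, RACGAP1, UBE2C and FOXM1. The cell cycle homology region (CHR), where MuvB complexes bind, was searched on both strands as TTTGAA or TTCGAA, and it occurred in 30 of the 44 member windows (68.2%) against 16.6% of all 27305 promoter windows. The CCAAT box, the site of the NF-Y factor, was searched on both strands as CCAAT and occurred in 31 member windows (70.5%) against 35.7% of all windows. Both motifs were present in 24 member windows (54.5%) and in 6.58% of all windows, whereas the E2F core GCGCGAAA was found in 1 member window (2.27%) and in 0.546% of all. A match is a stretch of letters and not a measured binding site. The 170 bases before the start are printed for the genes of the cyclin B and CDK1 switch and for PLK1, with CHR and CCAAT matches in capitals.
CCNB1 (chr5:69166980-69167149, forward strand): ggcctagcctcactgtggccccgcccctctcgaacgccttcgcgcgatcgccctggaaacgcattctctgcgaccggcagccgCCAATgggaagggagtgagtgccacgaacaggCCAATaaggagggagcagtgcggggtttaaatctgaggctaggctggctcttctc
CCNB2 (chr15:59104976-59105145, forward strand): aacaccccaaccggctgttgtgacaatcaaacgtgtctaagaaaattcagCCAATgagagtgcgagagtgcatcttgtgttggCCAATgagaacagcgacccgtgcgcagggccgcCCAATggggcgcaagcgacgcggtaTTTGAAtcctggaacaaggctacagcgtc
CDK1 (chr10:60778161-60778330, forward strand): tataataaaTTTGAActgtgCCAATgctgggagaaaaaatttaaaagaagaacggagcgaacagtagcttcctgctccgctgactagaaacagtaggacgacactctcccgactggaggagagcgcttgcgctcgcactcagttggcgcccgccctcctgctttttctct
PLK1 (chr16:23678719-23678888, forward strand): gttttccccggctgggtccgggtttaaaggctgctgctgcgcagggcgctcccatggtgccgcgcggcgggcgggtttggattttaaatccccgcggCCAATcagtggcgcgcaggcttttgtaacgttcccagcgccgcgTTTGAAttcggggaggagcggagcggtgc

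In CCNB2 and PLK1 the CHR started 29 bases before the transcription start, downstream of the CCAAT boxes. CCNB2 carried CCAAT boxes 120, 87 and 54 bases before the start, spaced by equal steps, and 1 further match 244 bases before it that lies outside the printed stretch. CCNB1 had CCAAT boxes 87 and 55 bases before the start and no CHR match of these letters in its window, while CDK1 had its CHR 161 bases and its CCAAT box 150 bases before the start. For CCNB1, CCNB2 and PLK1 the RefSeq start lies inside the longer gene span of GENCODE release 29. As a description over the 44 genes, the median log2 fold changes after siNUF2 of members with and without a CHR match were -0.0063 and -0.11 for 769-P, and 0.17 and 0.060 for ACHN. With and without a CCAAT match they were 0.020 and -0.11 for 769-P, and 0.15 and 0.16 for ACHN, and no difference between such groups was tested.

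NUF2 was checked first. Its level was 4.17, 3.86 and 3.01 FPKM under siNUF2 and 19.4, 17.8 and 17.8 FPKM under siControl in 769-P cells, and 2.16, 5.14 and 4.25 FPKM under siNUF2 and 11.6, 15.01 and 14.8 FPKM under siControl in ACHN cells, listed as replicates 1, 2 and 3 here and throughout. The groups did not overlap in either line. NUF2 fell in 769-P cells, with a log2 fold change of -2.29 (SE 0.13, limma with Benjamini-Hochberg adjustment over all genes tested, adjusted p = 0.00118). In ACHN cells the log2 fold change was -1.87 (SE 0.32, limma adjusted p = 0.224), and it passed the test when the replicate number was added to the model as a block (adjusted p = 0.0122). The exact permutation test gave p = 0.1 in each line, the smallest value that 3 libraries against 3 allow.

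The ACHN libraries numbered 1 stood apart from the others for these genes, and they did so in both arms. Their median over the 49 members, on the log2 scale of scaled FPKM with 0.1 added, was 3.87 under siNUF2 and 3.64 under siControl, against 4.31 to 4.56 in the other 4 ACHN libraries. In each arm, 48 of the 49 members were below their group mean in replicate 1. The median over all genes tested differed little between the same libraries, at 2.26 and 2.25 in replicate 1 and 2.21 to 2.23 in the others. The spread of the members was accordingly larger in ACHN cells, with a median SD between replicates of 0.29 under siNUF2 and 0.34 under siControl, than in 769-P cells, with 0.13 and 0.11. In 769-P cells the library medians lay between 4.39 and 4.57.

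**Figure D1:**
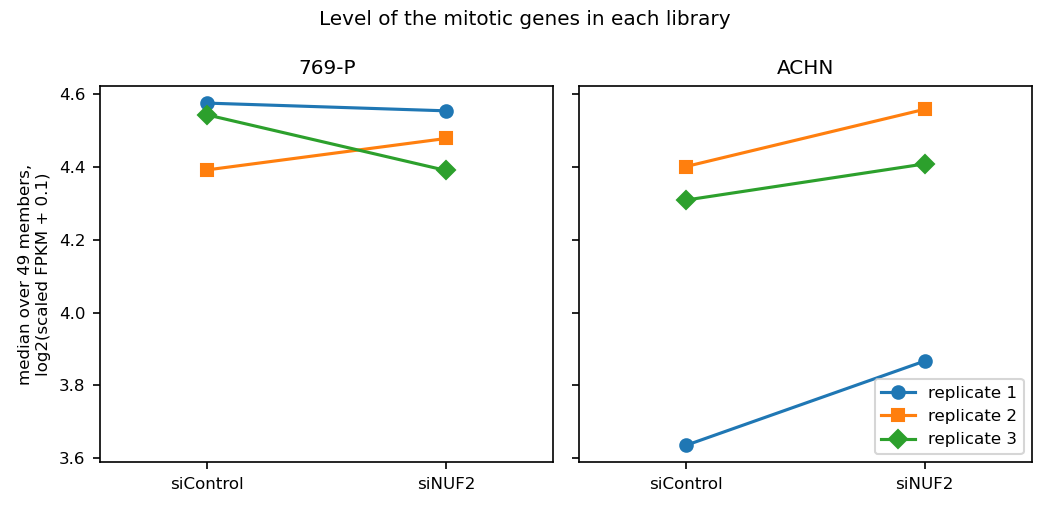
Median level of the 49 members in each of the 12 libraries, as log2(scaled FPKM + 0.1), for siControl and siNUF2 in 769-P (left) and ACHN cells (right), with lines joining libraries of the same replicate number. The ACHN libraries of replicate 1 lie at 3.64 and 3.87, below the other ACHN libraries, and every ACHN line runs upward.

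Since same-numbered libraries moved together, each result is given from the planned fit of 3 against 3 libraries and, where the call differs, from the fit with the replicate block. A member was called when its adjusted p was under 0.05, with no minimum fold. The comparison asks how the mitotic program responded to NUF2 knockdown in each line.

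In 769-P cells, the members moved in both directions and by little. Their median log2 fold change was -0.011, next to -0.011 over all 14160 genes tested, with 27 members lower and 22 higher, and a range from -0.38 for CKAP5 to 0.52 for TACC3. The median size of the change, regardless of sign, was 0.10 for members and 0.18 for all genes. CKAP5, which encodes the microtubule polymerase ch-TOG, was the 1 member called, against a background of 10.0% of all genes called (4.74% as lower). With the block 12 members were called, where 27.5% of all genes were. Of these, 7 were lower (CKAP5, ANLN, PLK1, PTTG1, CCNA2, CKAP2 and KIF22, background 14.0%) and 5 higher (NCAPD2, TPX2, MYBL2, CCNB2 and TACC3, background 13.6%). Without the block, the 95% interval of the fold change lay within 1.5-fold for 46 of the 49 members (58.8% of all genes). It lay within 2-fold for all 49 (85.2% of all genes).

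The 769-P libraries of siNUF2 lay below those of siControl without overlap for 11 members (22.4%, background 16.5%) and above for CCNB2 and TACC3 (4.08%, background 16.6%). By same-numbered pairs, 20 members were lower in all 3 pairs (40.8%, background 32.3%) and 16 were higher in all 3 (32.7%, background 30.6%). Single libraries decided the call of CKAP5, which passed without siNUF2 replicate 1 and did not pass without any 1 of the other 5 libraries. Without siControl replicate 1, TACC3 passed in its place. With the block, 5, 2 and 11 members were called without pair 1, 2 and 3 (backgrounds 17.3%, 10.5% and 21.5%), CKAP5 and TACC3 among them each time.

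In ACHN cells, more members were higher than lower. The median log2 fold change was 0.16, against 0.0061 over all 15116 genes tested, with 40 members higher and 9 lower, and a range from -0.073 for PTTG1 to 0.51 for MYBL2. No member was called without the block, where 0% of all genes were called by limma and the lowest adjusted p of any gene was 0.110. At an unadjusted p under 0.05 there were 1238 of all genes and 1 member. With the block 10 members were called, where 12.2% of all genes were. All 10 were higher (UBE2C, KIF23, NCAPG, TPX2, NCAPD2, PRC1, RACGAP1, TACC3, NEK2 and MYBL2, background 7.14%), and 0 were lower (background 5.05%).

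In ACHN cells the calls rested on the pairing, and the sign of the unpaired median rested on 1 control library. By same-numbered pairs, 35 members were higher in all 3 pairs (71.4%, background 29.2%) and 0 were lower in all 3 (background 25.6%). Taken as groups, the libraries of siNUF2 lay above those of siControl without overlap for SMC4 and MYBL2 (4.08%, background 8.86%), and for 0 members below (background 5.74%). Leaving out siControl replicate 1 turned the unpaired median to -0.044, with 30 members lower and 19 higher, while leaving out any other single ACHN library gave medians of 0.067 to 0.33. Leaving out both libraries of replicate 1 kept the paired median at 0.12, with 42 members higher, but no member was then called (background 1.42%). No member was called without pair 3 either (background 0%), and NEK2, TACC3 and MYBL2 were called without pair 2 (background 6.64%). The 95% interval of the fold change lay within 1.5-fold for 8 of the 49 members without the block (43.8% of all genes). With the block it did so for 47 (72.3% of all genes). Without the block it lay within 2-fold for 42 members (76.7% of all genes).

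**Figure D2:**
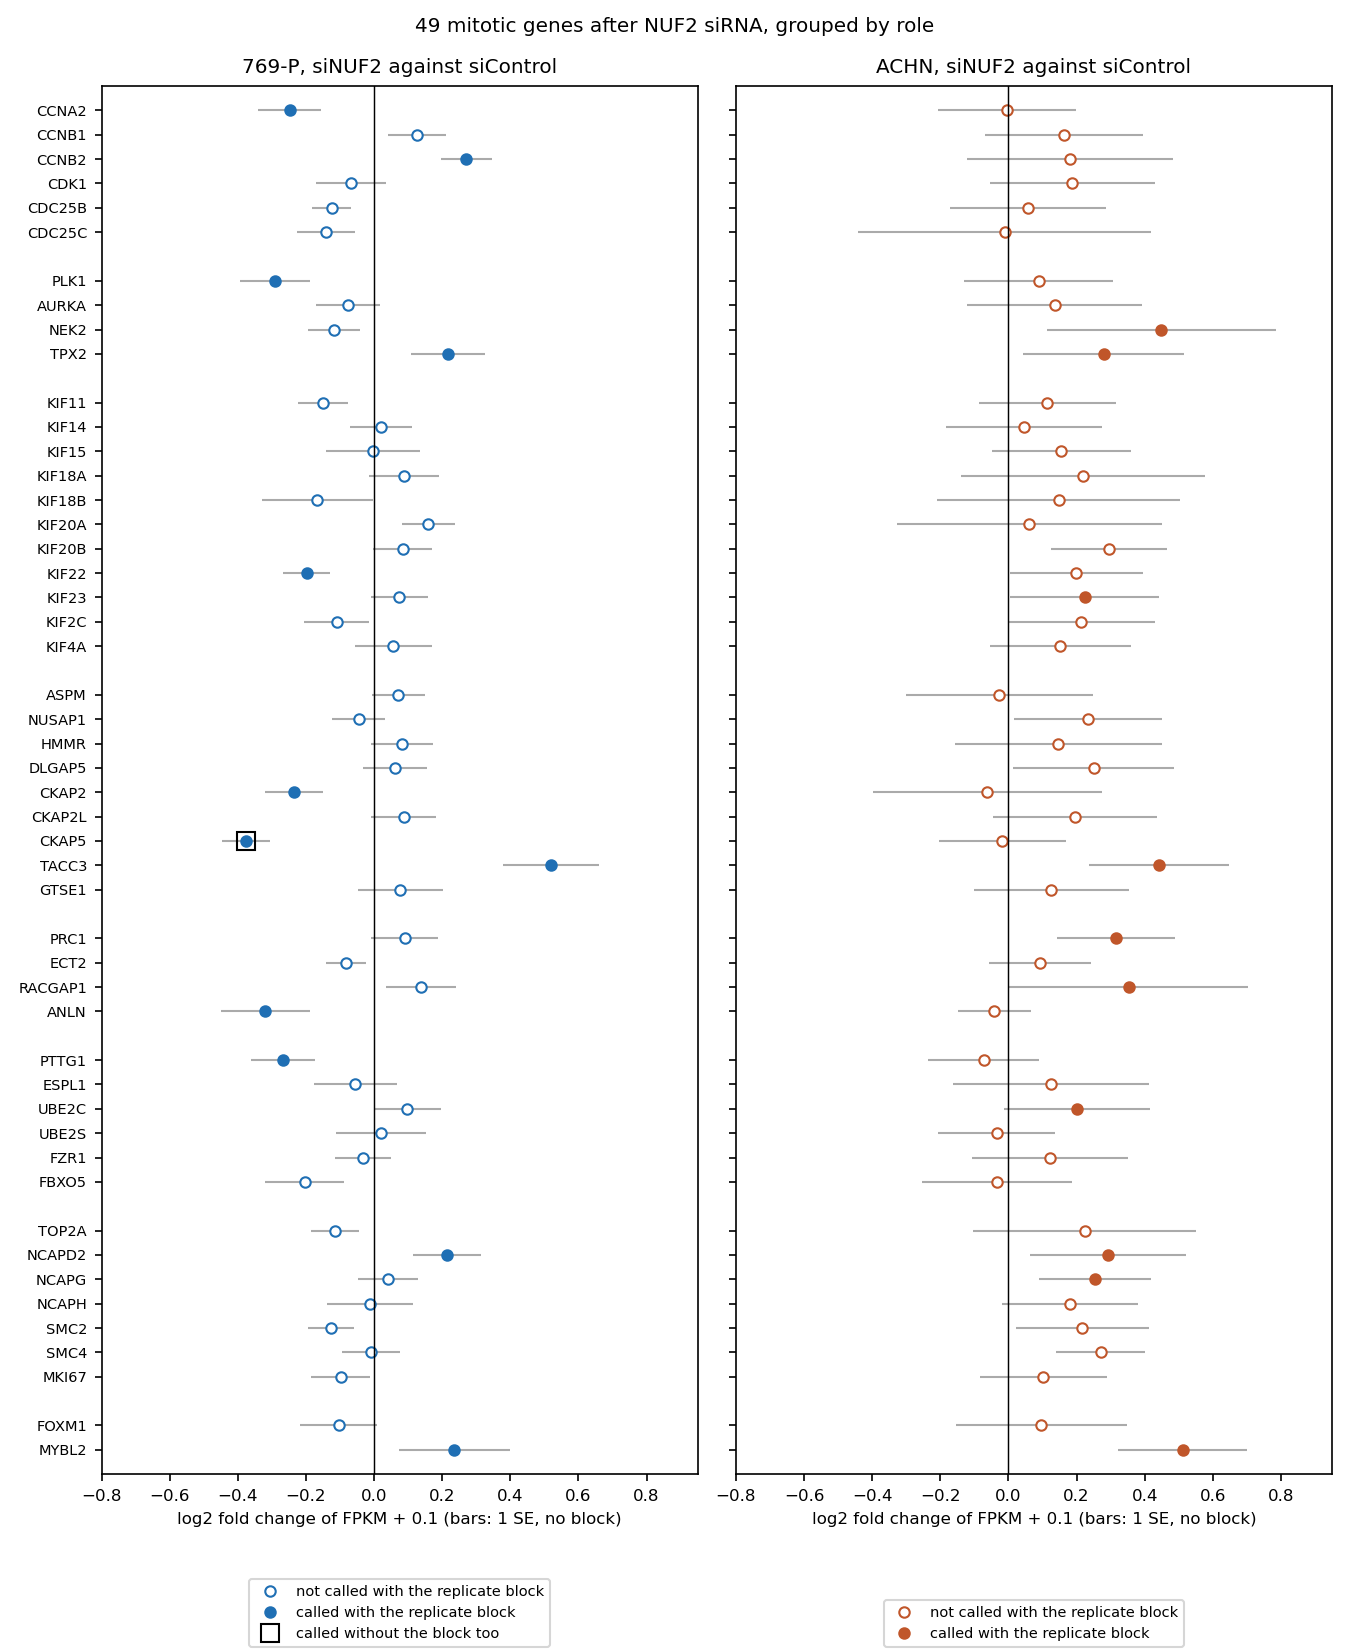
Log2 fold change of siNUF2 against siControl for each of the 49 members, grouped by role, in 769-P (left) and ACHN cells (right), with bars for 1 SE without the block. Filled points passed the test with the block and the square marks CKAP5, which passed without it too. The 769-P values lie on both sides of 0, from -0.38 to 0.52, while 40 of the ACHN values lie above 0.

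Among the genes of the CDK1 switch, CCNB1, which encodes cyclin B1, was 110.5, 94.8 and 95.6 FPKM under siNUF2 and 98.2, 88.6 and 90.03 FPKM under siControl in 769-P cells. The siNUF2 value was above the siControl value of the same number in each pair, and the groups overlapped, with a log2 fold change of 0.13 (SE 0.084, limma adjusted p = 0.385, and SE 0.039 and adjusted p = 0.0682 with the block). In ACHN cells CCNB1 was 37.2, 60.8 and 49.1 FPKM under siNUF2 and 34.4, 52.97 and 45.1 FPKM under siControl, with a log2 fold change of 0.16 (SE 0.23, limma adjusted p = 0.97, and SE 0.041 and adjusted p = 0.0633 with the block). CDK1, the kinase of the switch, was 32.4, 26.3 and 26.6 FPKM under siNUF2 and 30.1, 27.9 and 31.7 FPKM under siControl in 769-P cells, where it had a log2 fold change of -0.069 (SE 0.10, limma adjusted p = 0.715, and 0.534 with the block). Its ACHN values were 23.3, 33.7 and 32.7 FPKM under siNUF2 and 19.2, 28.97 and 32.5 FPKM under siControl, with a log2 fold change of 0.19 (SE 0.24, limma adjusted p = 0.96, and 0.13 with the block). Neither gene passed the test in either line, and the 95% interval of the 769-P log2 fold change without the block ran from -0.073 to 0.33 for CCNB1 and from -0.31 to 0.17 for CDK1. The ACHN intervals were wider, from -0.40 to 0.73 for CCNB1 and from -0.40 to 0.78 for CDK1. CCNB2, which encodes cyclin B2, was 26.7, 24.7 and 25.6 FPKM under siNUF2 and 22.9, 21.01 and 20.3 FPKM under siControl in 769-P cells, higher without overlap, with a log2 fold change of 0.27 (SE 0.075, limma adjusted p = 0.065, and SE 0.047 and adjusted p = 0.0163 with the block).

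CCNA2, which encodes cyclin A2 of S phase and mitotic entry, had the most negative log2 fold change of this group in 769-P cells. Its values there were 48.5, 42.9 and 40.7 FPKM under siNUF2 and 55.1, 48.1 and 54.5 FPKM under siControl. Its groups overlapped by replicate 1 of siNUF2, and it had a log2 fold change of -0.25 (SE 0.092, limma adjusted p = 0.139, and SE 0.063 and adjusted p = 0.0418 with the block). In ACHN cells CCNA2 was nearly the same in both arms, with means of 26.6 ± 4.798 and 27.1 ± 5.29 FPKM (SD, n = 3) and a log2 fold change of -0.0035. The phosphatase genes CDC25B and CDC25C were both lower without overlap in 769-P cells, with log2 fold changes of -0.12 and -0.14, and neither passed the test with or without the block. In ACHN cells their log2 fold changes were 0.058 and -0.011. Of the 6 genes of the switch, 0 passed without the block in either line, and with it 1 was lower and 1 higher in 769-P cells and 0 passed in ACHN cells.

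PLK1, the Polo-like kinase of mitotic entry and spindle assembly (ENSG00000166851, chr16:23677656-23690367), was 36.4, 31.5 and 30.6 FPKM under siNUF2 and 45.1, 38.1 and 38.2 FPKM under siControl in 769-P cells. Every siNUF2 library was below every siControl library, with differences of -0.27 to -0.30 on the log2 scale within the 3 pairs. The fit gave a log2 fold change of -0.29 (SE 0.10, limma adjusted p = 0.124, and SE 0.040 and adjusted p = 0.00967 with the block). In ACHN cells PLK1 was 20.9, 34.3 and 27.2 FPKM under siNUF2 and 20.96, 30.1 and 26.6 FPKM under siControl, with a log2 fold change of 0.090 (SE 0.22, limma adjusted p = 0.99, and SE 0.052 and adjusted p = 0.302 with the block), and the groups overlapped. TPX2, which activates Aurora A at the spindle, was higher in 769-P cells, at 71.9, 59.7 and 60.8 FPKM under siNUF2 and 62.4, 51.97 and 52.1 FPKM under siControl. It was higher in each pair of both lines, with a log2 fold change of 0.22 (SE 0.11, limma adjusted p = 0.247, and SE 0.037 and adjusted p = 0.016 with the block) in 769-P cells. The ACHN values of TPX2 were 46.04, 65.4 and 66.9 FPKM under siNUF2 and 36.2, 56.4 and 57.1 FPKM under siControl, with a log2 fold change of 0.28 (SE 0.24, limma adjusted p = 0.887, and SE 0.049 and adjusted p = 0.0323 with the block).

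AURKA, the gene of Aurora A, differed by less than the replicate spread in both lines. Its values were 43.1, 35.7 and 37.7 FPKM under siNUF2 and 42.97, 38.04 and 42.3 FPKM under siControl in 769-P cells, with a log2 fold change of -0.075 (SE 0.094, limma adjusted p = 0.653, and 0.299 with the block). In ACHN cells they were 15.1, 23.8 and 24.1 FPKM under siNUF2 and 14.1, 22.2 and 21.5 FPKM under siControl, with a log2 fold change of 0.14 (SE 0.26, limma adjusted p = 0.989, and 0.106 with the block). NEK2, a centrosome kinase that splits the centrosome pair, was 23.2, 23.2 and 20.4 FPKM under siNUF2 and 23.7, 24.04 and 25.1 FPKM under siControl in 769-P cells, lower without overlap but by little, with a log2 fold change of -0.12 (SE 0.076, limma adjusted p = 0.365, and 0.248 with the block). In ACHN cells NEK2 was 13.3, 24.9 and 21.95 FPKM under siNUF2 and 9.501, 19.04 and 16.3 FPKM under siControl. Each ACHN siNUF2 library was above the control of its number, while the groups overlapped through the low replicate 1, and the fit gave a log2 fold change of 0.45 (SE 0.34, limma adjusted p = 0.862, and SE 0.048 and adjusted p = 0.0154 with the block).

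The mitotic kinesins, motors that slide, cross-link or depolymerize microtubules, stayed close to the control in 769-P cells. Their median log2 fold change was 0.021 over 11 genes, with KIF22 lowest at -0.20 and KIF20A highest at 0.16. KIF22, a motor that binds chromosome arms, was 24.1, 23.7 and 21.7 FPKM under siNUF2 and 27.5, 26.3 and 26.3 FPKM under siControl in 769-P cells, lower without overlap, with a log2 fold change of -0.20 (SE 0.069, limma adjusted p = 0.12, and SE 0.046 and adjusted p = 0.0348 with the block). In ACHN cells KIF22 was 16.7, 23.04 and 20.98 FPKM under siNUF2 and 14.1, 21.5 and 18.2 FPKM under siControl, with a log2 fold change of 0.20 (SE 0.20, limma adjusted p = 0.924, and SE 0.052 and adjusted p = 0.0686 with the block). KIF20A, a motor of the central spindle, was 21.3, 20.2 and 20.8 FPKM under siNUF2 and 20.2, 18.6 and 17.3 FPKM under siControl in 769-P cells, where the lowest siNUF2 value met the highest siControl value, with a log2 fold change of 0.16 (SE 0.078, limma adjusted p = 0.241, and 0.0898 with the block). KIF11, which pushes the spindle poles apart, had log2 fold changes of -0.15 (769-P) and 0.11 (ACHN) without passing the test, and KIF2C, a microtubule depolymerase, had -0.11 and 0.21.

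In ACHN cells, all 11 kinesins had positive log2 fold changes, from 0.046 for KIF14 to 0.30 for KIF20B, with a median of 0.16. KIF23, the kinesin of the centralspindlin complex, was the 1 kinesin called with the block there, at 11.02, 16.1 and 16.2 FPKM under siNUF2 and 9.62, 13.4 and 14.4 FPKM under siControl. It was higher in each pair by 0.18 to 0.27, and the fit gave a log2 fold change of 0.22 (SE 0.22, limma adjusted p = 0.924, and SE 0.046 and adjusted p = 0.0438 with the block). Its partner RACGAP1, a GTPase-activating protein of the cleavage furrow, was 21.5, 38.2 and 37.3 FPKM under siNUF2 and 15.7, 31.03 and 31.2 FPKM under siControl in ACHN cells, with a log2 fold change of 0.35 (SE 0.35, limma adjusted p = 0.927, and SE 0.057 and adjusted p = 0.0274 with the block). PRC1, which bundles the microtubules of the central spindle, was 20.02, 26.4 and 26.4 FPKM under siNUF2 and 16.1, 21.1 and 22.04 FPKM under siControl, with a log2 fold change of 0.32 (SE 0.17, limma adjusted p = 0.751, and SE 0.043 and adjusted p = 0.0206 with the block). The 769-P log2 fold changes of these genes were smaller, at 0.075 for KIF23, 0.14 for RACGAP1 and 0.091 for PRC1, and none of them passed there with or without the block.

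ANLN, the actin-binding scaffold anillin of the cleavage furrow, was lower in 769-P cells, at 38.3, 29.2 and 28.6 FPKM under siNUF2 and 43.6, 36.4 and 39.8 FPKM under siControl. The siNUF2 replicate 1 reached into the control range and the other siNUF2 libraries were below it, with a log2 fold change of -0.32 (SE 0.13, limma adjusted p = 0.169, and SE 0.065 and adjusted p = 0.0239 with the block). In ACHN cells ANLN was 35.7, 38.3 and 41.2 FPKM under siNUF2 and 37.5, 38.4 and 44.3 FPKM under siControl, with a log2 fold change of -0.041 (SE 0.11, limma adjusted p = 0.99, and 0.548 with the block). ECT2, the exchange factor that activates RhoA at the furrow, was lower without overlap in 769-P cells by a small log2 fold change of -0.082, its ACHN value was 0.093, and neither passed. ANLN was thus at the low end and RACGAP1 at the high end of the 4 cytokinesis genes in both lines.

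The spindle-associated genes held both ends of the response in 769-P cells. CKAP5 (ENSG00000175216, chr11:46743048-46846308) was 24.3, 22.8 and 22.5 FPKM under siNUF2 and 31.7, 28.8 and 30.4 FPKM under siControl in 769-P cells. The groups were apart by more than the range of either, and the fit gave a log2 fold change of -0.38 (SE 0.070, limma adjusted p = 0.0233, and SE 0.044 and adjusted p = 0.00754 with the block). In ACHN cells CKAP5 was 16.6, 23.4 and 22.4 FPKM under siNUF2 and 17.2, 23.4 and 23.3 FPKM under siControl, with a log2 fold change of -0.018 (SE 0.19, limma adjusted p = 0.997, and SE 0.042 and adjusted p = 0.806 with the block). TACC3 (ENSG00000013810, chr4:1721490-1745176), whose protein carries ch-TOG to spindle microtubules, was 32.04, 26.9 and 25.8 FPKM under siNUF2 and 23.7, 18.9 and 17.1 FPKM under siControl in 769-P cells. Every siNUF2 value of TACC3 was above every siControl value, with a log2 fold change of 0.52 (SE 0.14, limma adjusted p = 0.0621, and SE 0.051 and adjusted p = 0.00607 with the block). In ACHN cells TACC3 was 13.99, 19.1 and 17.9 FPKM under siNUF2 and 9.72, 15.3 and 13.2 FPKM under siControl, with a log2 fold change of 0.44 (SE 0.21, limma adjusted p = 0.669, and SE 0.060 and adjusted p = 0.0206 with the block), and the groups overlapped through replicate 1 of siNUF2. CKAP5 and TACC3, which encode partners on the spindle, thus had fold changes of opposite sign in 769-P cells.

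CKAP2, a microtubule stabilizer, was 19.8, 17.3 and 17.04 FPKM under siNUF2 and 21.7, 20.1 and 22.3 FPKM under siControl in 769-P cells, lower without overlap, with a log2 fold change of -0.24 (SE 0.086, limma adjusted p = 0.132, and 0.0454 with the block). Its ACHN log2 fold change was -0.062. The 6 other spindle-associated genes, ASPM, NUSAP1, HMMR, DLGAP5, CKAP2L and GTSE1, had log2 fold changes between -0.045 and 0.087 in 769-P cells and between -0.027 and 0.25 in ACHN cells, and none passed the test in either line with or without the block.

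**Figure D3:**
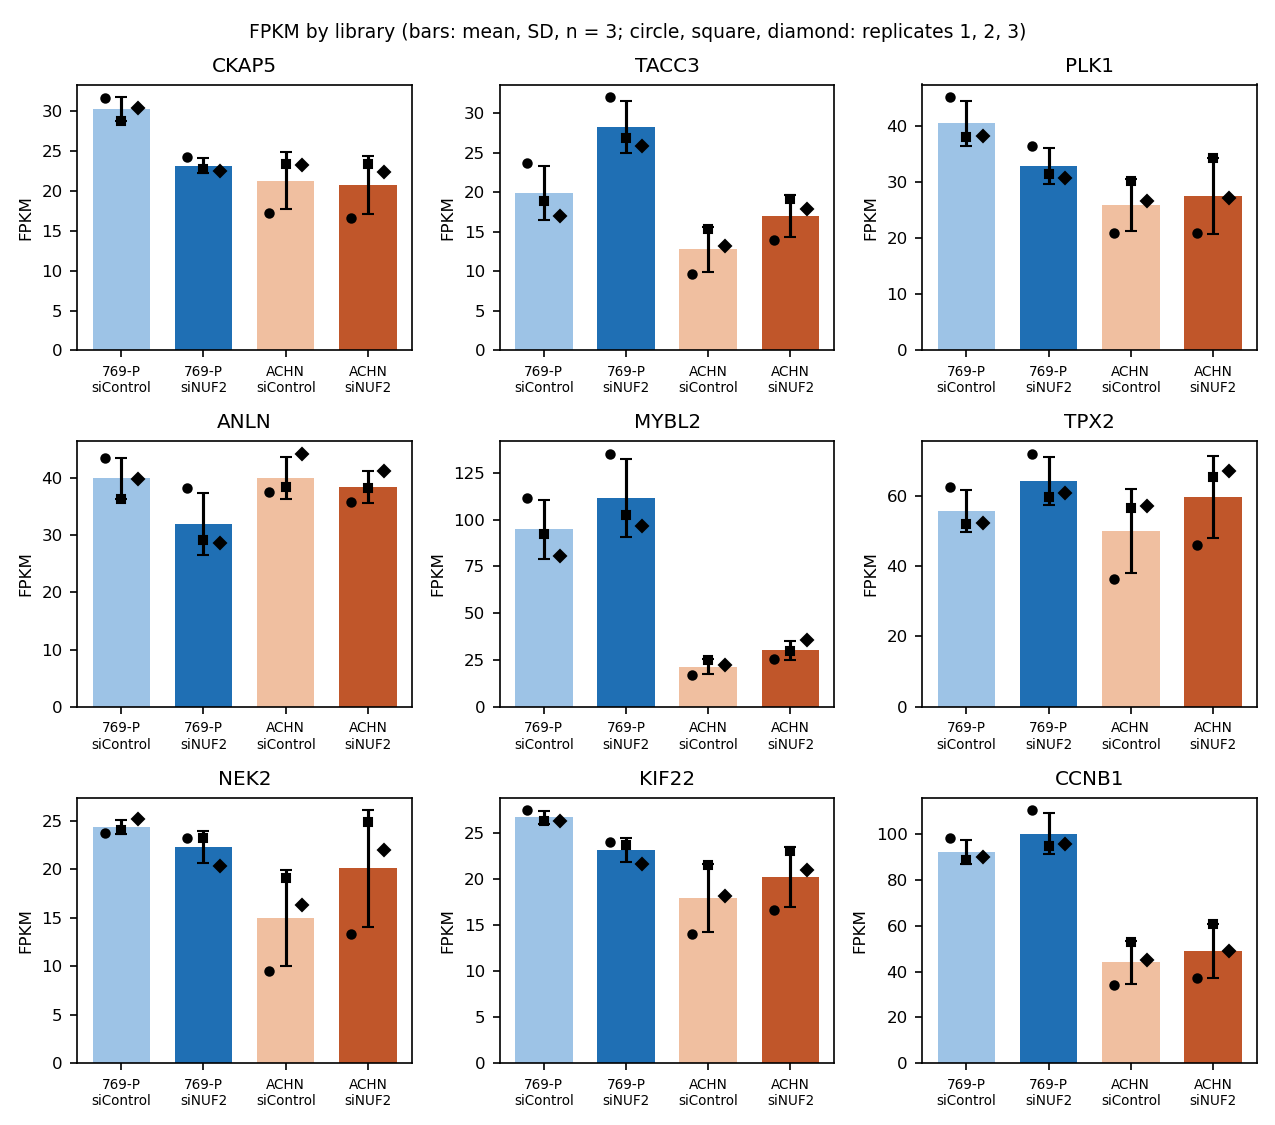
FPKM as deposited of 9 members in the 12 libraries, with bars for the group mean, error bars for the SD (n = 3) and 1 point per library (circle, square and diamond for replicates 1, 2 and 3). The 769-P points of CKAP5 and PLK1 are lower and those of TACC3 higher under siNUF2 without overlap, and the ACHN circles lie below the squares and diamonds.

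At the exit from mitosis, PTTG1, which encodes the separase inhibitor securin, was 53.1, 50.9 and 42.6 FPKM under siNUF2 and 61.7, 58.7 and 56.4 FPKM under siControl in 769-P cells. It was lower without overlap, with a log2 fold change of -0.27 (SE 0.095, limma adjusted p = 0.124, and SE 0.054 and adjusted p = 0.0235 with the block). In ACHN cells PTTG1 was 26.5, 24.9 and 30.1 FPKM under siNUF2 and 26.1, 25.6 and 35.9 FPKM under siControl, with a log2 fold change of -0.073 (SE 0.16, limma adjusted p = 0.989, and 0.502 with the block), and replicate 3 of siControl stood above the others. UBE2C, the ubiquitin-conjugating enzyme that starts chains for the anaphase-promoting complex, was 84.9, 71.7 and 69.1 FPKM under siNUF2 and 76.3, 68.6 and 66.8 FPKM under siControl in 769-P cells, with a log2 fold change of 0.10 (SE 0.10, limma adjusted p = 0.575, and 0.144 with the block). In ACHN cells UBE2C was 39.998, 57.8 and 55.4 FPKM under siNUF2 and 34.4, 51.8 and 49.004 FPKM under siControl, with a log2 fold change of 0.20 (SE 0.21, limma adjusted p = 0.94, and SE 0.041 and adjusted p = 0.0427 with the block). UBE2S, which extends these chains, had log2 fold changes of 0.020 (769-P) and -0.034 (ACHN), ESPL1 (separase) had -0.055 and 0.12, FZR1 (a coactivator of the complex) had -0.033 and 0.12, and FBXO5 (the inhibitor EMI1) had -0.20 and -0.033. None of these 4 passed the test.

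Among the chromosome genes, none of the condensin subunits passed without the block in either line, and with it NCAPD2 was called in both lines and NCAPG in ACHN cells. NCAPD2 was 42.5, 35.9 and 37.6 FPKM under siNUF2 and 37.1, 33.1 and 30.6 FPKM under siControl in 769-P cells and higher in each pair, with a log2 fold change of 0.21 (SE 0.10, limma adjusted p = 0.223, and SE 0.052 and adjusted p = 0.0381 with the block). In ACHN cells NCAPD2 was 53.6, 82.8 and 67.2 FPKM under siNUF2 and 42.8, 69.1 and 56.8 FPKM under siControl, with a log2 fold change of 0.29 (SE 0.23, limma adjusted p = 0.873, and SE 0.042 and adjusted p = 0.0223 with the block). NCAPG, its partner in condensin I, was 6.15, 6.79 and 7.94 FPKM under siNUF2 and 5.09, 5.55 and 7.09 FPKM under siControl in ACHN cells, with a log2 fold change of 0.25 (SE 0.16, limma adjusted p = 0.808, and SE 0.056 and adjusted p = 0.0486 with the block), while its 769-P log2 fold change was 0.041. SMC2, a core ATPase of both condensins, was 16.1, 15.4 and 15.6 FPKM under siNUF2 and 16.7, 16.9 and 18.2 FPKM under siControl in 769-P cells, lower without overlap, with a log2 fold change of -0.13 (SE 0.067, limma adjusted p = 0.272, and 0.129 with the block). Its ACHN log2 fold change was 0.22, that of NCAPH was 0.18 and that of SMC4 was 0.27, and none of these passed the test.

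MKI67 and TOP2A, which are widely read as proliferation markers, did not pass the test in either line. MKI67, the gene of the Ki-67 protein of the mitotic chromosome surface, was 26.2, 25.5 and 22.1 FPKM under siNUF2 and 27.97, 26.01 and 25.4 FPKM under siControl in 769-P cells, with a log2 fold change of -0.10 (SE 0.087, limma adjusted p = 0.518, and 0.208 with the block). In ACHN cells it was 23.4, 30.04 and 26.97 FPKM under siNUF2 and 19.6, 29.7 and 27.3 FPKM under siControl, with a log2 fold change of 0.10 (SE 0.19, limma adjusted p = 0.988, and 0.372 with the block). TOP2A, the topoisomerase that untangles sister chromatids, was 61.1, 57.7 and 53.7 FPKM under siNUF2 and 61.9, 60.8 and 64.9 FPKM under siControl in 769-P cells, with a log2 fold change of -0.11 (SE 0.070, limma adjusted p = 0.344, and 0.212 with the block). Its ACHN values were 41.6, 73.1 and 66.1 FPKM under siNUF2 and 33.2, 65.5 and 60.2 FPKM under siControl, with a log2 fold change of 0.22 (SE 0.33, limma adjusted p = 0.974, and 0.0645 with the block). The 95% intervals without the block ran from -0.30 to 0.11 for MKI67 and from -0.28 to 0.051 for TOP2A in 769-P cells, and from -0.35 to 0.55 and -0.57 to 1.02 in ACHN cells.

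Both transcription factors of the program were expressed in both lines. FOXM1 was 22.4, 18.4 and 20.5 FPKM under siNUF2 and 23.4, 19.4 and 23.6 FPKM under siControl in 769-P cells, with a log2 fold change of -0.10 (SE 0.11, limma adjusted p = 0.598, and 0.174 with the block). In ACHN cells it was 22.2, 35.3 and 32.5 FPKM under siNUF2 and 20.7, 33.3 and 31.4 FPKM under siControl, with a log2 fold change of 0.10 (SE 0.25, limma adjusted p = 0.99, and 0.188 with the block), so that FOXM1 overlapped between the arms in both lines. MYBL2 (ENSG00000101057, chr20:43667019-43716496) was 135, 102 and 96.5 FPKM under siNUF2 and 112, 92.6 and 80.5 FPKM under siControl in 769-P cells. It was higher in each 769-P pair although the groups overlapped, with a log2 fold change of 0.24 (SE 0.16, limma adjusted p = 0.401, and SE 0.044 and adjusted p = 0.0196 with the block). In ACHN cells MYBL2 was 25.6, 29.7 and 35.5 FPKM under siNUF2 and 17.1, 25.002 and 22.5 FPKM under siControl, higher without overlap, with a log2 fold change of 0.51 (SE 0.19, limma adjusted p = 0.548, and SE 0.092 and adjusted p = 0.0337 with the block). MYBL2 had the largest fold change of the 49 members in ACHN cells and rose with the block in both lines.

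Across the 49 members, the log2 fold changes of the lines went together to some degree. Pearson's r was 0.62 and Spearman's rho 0.58 over the 49 members, against 0.47 and 0.54 over the 12933 genes tested in both lines, where genes are not independent replicates. By sign, 20 members were higher in both lines, 7 lower in both, 20 lower in 769-P and higher in ACHN cells, and 2 the reverse. The sign was the same in both lines for 27 of the 49 members. Over all genes tested in both lines it was the same for 9104 of 12933, a larger share. TPX2, TACC3, NCAPD2 and MYBL2 were called in both lines with the block, all 4 as higher in both. With the block, 27.5% of all genes were called for 769-P and 12.2% for ACHN. The share called in both lines was not counted, so these 4 have no background.

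The difference between the lines was then fitted as an interaction between siRNA and line over all 12 libraries. The ACHN minus 769-P difference in log2 fold change was above 0 for 44 of the 49 members, with a median of 0.18, and 0 members were called without the block, where 0% of all genes were called by limma and 772 of all genes and 0 members had an unadjusted p under 0.05. This median was 0.0024 without ACHN siControl replicate 1, in a fit that kept the low ACHN siNUF2 replicate 1 without its pair. In the blocked fits of each line without pair 1, the median log2 fold changes were -0.015 for 769-P and 0.12 for ACHN. With the block, 3 members were called for the interaction, where 1.39% of all genes were. NEK2 differed by 0.56 (limma adjusted p = 0.0415), KIF22 by 0.39 (limma adjusted p = 0.0437) and CKAP5 by 0.35 (limma adjusted p = 0.0377). PLK1 differed by 0.37 and did not pass (limma adjusted p = 0.0504).

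**Figure D4:**
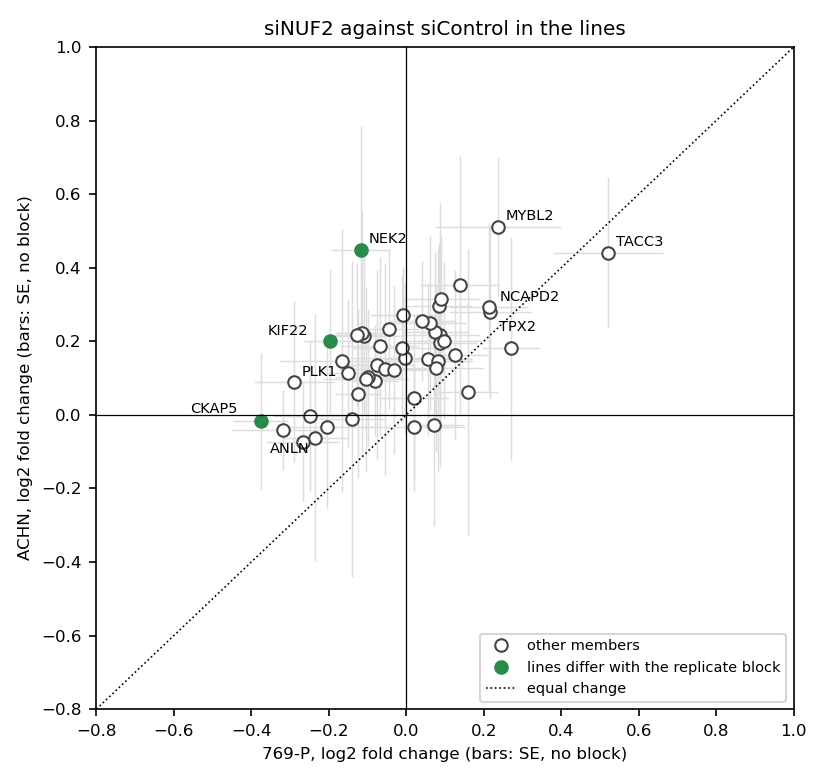
Log2 fold change of siNUF2 against siControl in ACHN (vertical) against 769-P cells (horizontal) for the 49 members, with bars for the SE without the block and a dotted line of equal change. Filled points are NEK2, KIF22 and CKAP5, whose response differed between the lines with the block. TACC3 and MYBL2 lie high in both lines, and CKAP5, ANLN and PLK1 lie low in 769-P cells and near 0 in ACHN cells.

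The lines themselves differed more than either differed after knockdown. Under siControl, 42 of the 49 members were lower in ACHN than in 769-P cells, with a median log2 difference of -0.46 against -0.028 over all 15377 genes tested. By limma without a block, 26 members were called, where 61.4% of all genes were. Of these, 24 were lower in ACHN cells (background 31.9%) and 2 higher (background 29.6%). Culture medium differed with the line, and the part it may have was not tested. Without the low ACHN siControl replicate 1 the median was -0.35, with 23 members called as lower (background 35.1%) and 5 as higher (background 22.3%), and leaving out any 1 library gave 17 to 28 called members. The count was 17 without 769-P siControl replicate 1 (7696 of 14588 genes called). It was again 17 without 769-P siControl replicate 3 (7598 of 14612). Over the fits without 1 library, 7301 to 8142 of all genes were called.

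MYBL2 was the member that differed most between the lines. It was 94.9 ± 15.8 FPKM in 769-P and 21.5 ± 4.05 FPKM in ACHN cells under siControl (SD, n = 3), a log2 difference of -2.17 (SE 0.18, limma adjusted p = 8.46e-05). NCAPG followed, at 17.96 ± 1.397 and 5.91 ± 1.05 FPKM, with -1.63 (limma adjusted p = 1.22e-04). AURKA (-1.14), CCNB1 (-1.11), PTTG1 (-1.06), CCNA2 (-1.002) and KIF20A (-1.001) were also lower in ACHN cells by 1 or more on the log2 scale. NCAPG thus differed from its condensin partner NCAPD2, which was higher in ACHN cells at 56.2 ± 13.1 against 33.6 ± 3.27 FPKM, with 0.69 (limma adjusted p = 0.0139). CKAP2L, a centrosome and spindle pole protein, was the other member called as higher in ACHN cells (0.57, limma adjusted p = 0.0457).

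Members that did not pass between the lines included CDK1 (-0.22, 95% interval -0.69 to 0.25), FOXM1 (0.31, -0.16 to 0.77), MKI67 (-0.10, -0.49 to 0.28) and ANLN (-0.025, -0.28 to 0.23). The lower level in ACHN cells was therefore uneven over the program. By role, the median log2 difference ran from -0.93 for the 2 transcription factors to -0.27 for the cytokinesis genes. The 2 transcription factors had opposite signs, at -2.17 for MYBL2 and 0.31 for FOXM1. The median was -0.78 for the cyclins, CDK1 and CDC25 phosphatases. Called as lower were 1 of the 2 transcription factors, 4 of these 6 genes and 2 of the 4 cytokinesis genes (background 31.9%). The kinesins had a median of -0.39, with 4 of 11 called as lower (background 31.9%).

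**Figure D5:**
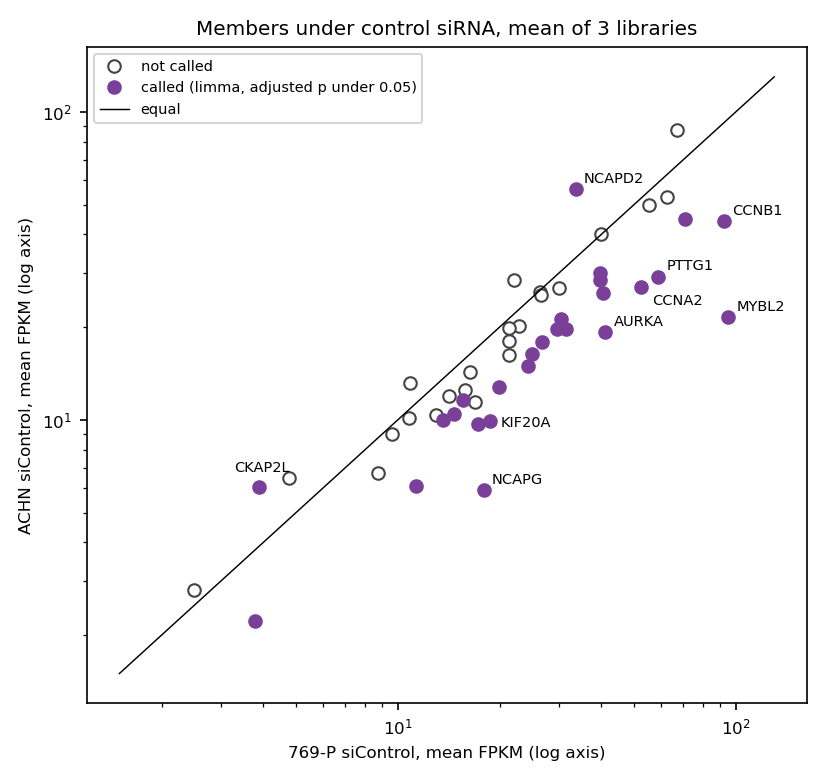
Mean FPKM of the 49 members under siControl in ACHN (vertical) against 769-P cells (horizontal), on log axes, with a diagonal of equal levels and filled points for members that passed the test between the lines. MYBL2 and NCAPG lie farthest below the diagonal, and NCAPD2 and CKAP2L lie above it.

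The members spanned a wide range of levels within each line, which FPKM makes comparable between genes. In 769-P siControl cells the lowest mean was 2.50 FPKM for KIF15, the median 22.1 FPKM and the highest 94.9 FPKM for MYBL2, followed by CCNB1, UBE2C, UBE2S and TOP2A. CCNB1 and MYBL2 overlapped in their libraries, so their order is not beyond the spread. In ACHN siControl cells the lowest was 2.22 FPKM for CDC25C, the median 17.9 FPKM and the highest 87.1 FPKM for UBE2S, followed by NCAPD2, TOP2A, TPX2 and UBE2C. The 5 highest members in 769-P cells were the same under siNUF2 except that TPX2 took the place of TOP2A, and the 5 highest in ACHN cells were the same in both arms. KIF15 and CDC25C, with CKAP2L, were among the 5 lowest members in all 4 groups.

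Genes of the same pathways that are not among the 49 were counted from 9 lists of 141 genes, of which 140 could be tested for 769-P and 139 for ACHN. After siNUF2 in 769-P cells, 7 of them fell and 7 rose without the block (background 10.0% for either direction), with a median log2 fold change of -0.025. CDKN1C, a CDK inhibitor, fell by 1.71 (limma adjusted p = 0.0268) and CDKN1B, another, fell by 0.58 (limma adjusted p = 0.0268) on the log2 scale. ENSA, an inhibitor of the mitotic phosphatase PP2A-B55, rose by 0.83 (limma adjusted p = 0.00374). In the chromosomal passenger complex, BIRC5 (survivin) rose by 0.56 (limma adjusted p = 0.0377) and CDCA8 (borealin) fell by 0.29 (limma adjusted p = 0.0330). KIF1C, a transport kinesin, rose by 1.09 (limma adjusted p = 0.0105), and the cohesin regulator PDS5A fell by 0.54 (limma adjusted p = 0.0244). With the block 20 fell (14.3%, background 14.0%) and 18 rose (12.9%, background 13.6%).

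In ACHN cells 0 of the 139 passed without the block, and with it 4 were lower (2.88%, background 5.05%) and 35 higher (25.2%, background 7.14%), with a median of 0.15. Of the 35, 14 came from the G1/S and replication list. Over the other lists, 21 of 114 were higher (18.4%), with a median of 0.085. BIRC5 was higher there by 0.56 as well (limma adjusted p = 0.0122 with the block). The list that moved furthest was that of G1/S and replication genes, taken for comparison, with 14 of 25 higher with the block and a median of 0.47. Among these GINS2, a subunit of the replicative helicase, was higher by 0.97 (limma adjusted p = 0.0182 with the block) and E2F1 by 0.81 (limma adjusted p = 0.0241 with the block). The CDK inhibitor CDKN1A was lower by 0.78 (limma adjusted p = 0.0189 with the block). In 769-P cells the median of the G1/S list was 0.040, and 0 of its genes passed without the block, and 2 were lower and 5 higher with it. Under siControl, 24 of the 25 G1/S genes were lower in ACHN than in 769-P cells, with a median of -1.27, next to -0.46 for the 49 mitotic genes.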

How the data were processed

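Total RNA of 12 libraries was sequenced on the Illumina platform, and reads were filtered with fastp by the authors. The submitters' processing notes name HISAT2 2.0.5, featureCounts 1.5.0-p3 and the build hg38, and the authors deposited FPKM per gene and library. Their own differential expression used DESeq2 and was not used here. Genes were placed with GENCODE release 29 (GRCh38).

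FPKM were scaled by a trimmed mean of log ratios (30% of ratios and 5% of levels trimmed) within the libraries of each comparison, and log2(FPKM + 0.1) was fitted with limma 3.58.1 (R 4.3.3; lmFit, eBayes with a trend) for genes with at least 0.5 scaled FPKM in at least 3 libraries. A fold change on this scale understates that of genes near the added 0.1. The Benjamini-Hochberg adjustment ran over all genes tested, and genes were called at adjusted p under 0.05 with no minimum fold. The members and the lists were chosen with earlier results of these data known. Members with full values were NUF2, CCNB1, CDK1, PLK1, AURKA, FOXM1, MYBL2, MKI67 and TOP2A, those called per line, the lowest and highest of each role in 769-P cells, and the 3 lowest interaction p-values with the block. CKAP2 passed with the block in 769-P cells and is given besides.

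The study does not say what a replicate number stands for. Deviations from the group means of same-numbered libraries correlated at 0.35, 0.28 and 0.19 in 769-P and at 0.65, 0.73 and 0.46 in ACHN cells over all genes tested, each above 0.1, so the numbers were taken as pairs and the blocked values are given. Within groups no library was a copy of another (chi-square per gene at least 14.3).

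Reads were recovered from FPKM and exon lengths (whole within 0.05 of a read) for the depth and for limma-voom. Alternatives were other pseudocounts, scalings, filters, all 12 libraries in 1 fit, the block, limma-voom and each replicate left out. The fits were tried on simulated 769-P counts without an effect shared by same-numbered libraries. That simulation cannot check the pairing, the ACHN spread or changes as small as those of the members. Python 3.11.15 with pandas 2.3.3, NumPy 2.4.6, SciPy 1.17.1 and matplotlib 3.10.9 served for tables and plots.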

Additional observations from a re-analysis of the deposited data

Results flagged for a closer look

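The response to siNUF2 differed between the cell lines for 3 of the 49 members when the replicate block was included (limma interaction of siRNA and cell line, adjusted p under 0.05, 1.39% of all genes). The ACHN minus 769-P difference in log2 fold change was 0.558 for NEK2, 0.387 for KIF22 and 0.348 for CKAP5. NEK2 was lower in each 769-P pair and higher in each ACHN pair, and so was KIF22. CKAP5 was lower in each 769-P pair and in 2 of the 3 ACHN pairs. None of the 3 passed without the block, where 0 members and 0 of all genes were called. Leaving out ACHN siControl replicate 1 brought the median difference of the 49 members without the block from 0.18 to 0.0024. That fit kept the low ACHN siNUF2 replicate 1 without its pair. In the blocked fits of each line without pair 1, the median log2 fold changes were -0.015 for 769-P and 0.12 for ACHN.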

How the results depend on the processing

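The fit with the replicate block, for libraries paired by number, changed the counts of called members and the shares of all genes called. In 769-P cells 12 members were called in place of 1 (27.5% of all genes in place of 10.0%). In ACHN cells 10 were called in place of 0 (12.2% in place of 0%). For the difference between the lines 3 were called in place of 0 (1.39% in place of 0%). Leaving out 1 pair from the blocked fit, chosen after the data had been seen, gave 5, 2 and 11 called members for 769-P and 0, 3 and 0 for ACHN without pair 1, 2 and 3. The backgrounds were 17.3%, 10.5% and 21.5% for 769-P and 1.42%, 6.64% and 0% for ACHN. On recovered reads, limma-voom called 2 members for 769-P and 0 for ACHN, where 13.2% and 0% of all genes were called. With the block, also chosen after the data had been seen, it called 15 and 19, where 36.8% and 23.3% of all genes were called. In 769-P cells the count was 0 with all 12 libraries in 1 fit (718 of 16570 genes called) and 2 with at least 1 FPKM in every library (1621 of 11046). It was 0 to 1 without 1 library (365 to 1144 of all genes called). The count between the lines under siControl was 17 to 28 without 1 library (7301 to 8142 of all genes called) and 19 to 27 under the other settings. The 19 came with no filter on low values (11191 of 33760 genes called). The 27 came with a pseudocount of 1 (9472 of 15377) and with at least 1 FPKM in every library (6251 of 10327). The medians of the members ran from -0.089 to 0.046 in 769-P cells and from -0.044, in the unpaired fit without siControl replicate 1, to 0.33 in ACHN cells. Of 1862 single member values under alternatives, 1779 kept their call, 75 passed where the planned fit did not and 6 no longer passed. A sign change of an uncalled value by less than 1 SE was counted as no change. Beyond that, ASPM turned to -0.0090 in 769-P cells in the blocked fit without pair 2, and NUSAP1 to 0.042 without pair 3. The causes of these changes were not tested.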
